A study of Mus musculus with 12 samples.

Results

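Acta2, Myh11, Cnn1, Tagln, Actg2, Mylk, Oxtr and Trp63 are genes by which myoepithelial and smooth muscle cells are usually recognized, and their RNA was counted in 12 mammary tumors. The 8 genes were picked by name from the 54532 genes of the deposited count and FPKM tables. All tumors grew in female MMTV-neu mice, in which the MMTV promoter drives wild-type Neu, the rodent form of HER2, in mammary epithelium, so that the control group carries the transgene too. The mice ate a control diet, a diet with MSU-42011 or a diet with bexarotene, both compounds at 100 mg/kg diet, and 4 tumors of each diet were sequenced. MSU-42011 and bexarotene are agonists of the retinoid X receptor (RXR), a nuclear receptor that binds DNA as a homodimer or with a partner receptor. Feeding began when a tumor measured 4 mm and lasted 10 days, and poly(A) RNA was taken from frozen pieces of tumor, which hold every cell type of the tissue.

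Myoepithelial cells form the outer, basal layer of mammary ducts and alveoli. They combine epithelial traits, such as basal keratins and the transcription factor p63, with the contractile proteins of smooth muscle, and they squeeze out milk when oxytocin reaches its receptor. The same contractile proteins are made by smooth muscle of vessel walls and, in the case of smooth muscle alpha-actin, by pericytes and activated fibroblasts. Many contractile genes are switched on by serum response factor (SRF) and its cofactor myocardin, which act at a DNA element named the CArG box.

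The contractile members, Acta2, Myh11, Cnn1, Tagln, Actg2 and Mylk, were low to moderate in most tumors and highest in bexarotene replicate 1. Oxtr and Trp63 peaked in other tumors. No member differed between diets after adjustment over all genes.

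The total gene count of a tumor was between 16583413 and 25925027 (median 19342536), and 15504 genes passed edgeR's filter on low counts. Levels are given as normalized CPM, which are counts scaled to a common library size with edgeR's TMM factors, and 3 counts corresponded to 0.111 to 0.184 CPM. Bexarotene replicate 1 stood apart from the other tumors: over all genes tested it correlated with them at a median r of 0.922, where each other tumor reached 0.970 or more. It held the highest value for 6 of the 8 members and for 19.1% of the genes tested. Results that rest on this tumor are therefore given with and without it.

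Regulatory sequence was available for 4 of the 8 members (Acta2, Cnn1, Mylk and Oxtr), each as 300 bases from 250 before to 50 after a start site (RefSeq, GRCm38.p6). The promoters of Acta2 and Oxtr are shown because these genes are the most abundant contractile member and the member with the lowest mean on bexarotene relative to control. Acta2 encodes smooth muscle alpha-actin and lies on the minus strand of chromosome 19 (34241090 to 34255336 in the deposited tables), and the capitals in its promoter mark CArG boxes with 1 G or C inside the A and T core.
Acta2 promoter, chr19:34255324-34255623, minus strand: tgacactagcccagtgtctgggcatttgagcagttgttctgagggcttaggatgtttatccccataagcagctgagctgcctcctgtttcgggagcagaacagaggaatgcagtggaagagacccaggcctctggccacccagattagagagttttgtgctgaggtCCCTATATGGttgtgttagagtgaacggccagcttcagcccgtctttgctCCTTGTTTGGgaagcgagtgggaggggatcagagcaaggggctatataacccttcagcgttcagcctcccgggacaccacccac
The elements begin 84 and 34 bases before the start site. This form of the CArG box, searched on both strands, is found in 12.2% of 32851 promoters of the same length, and among the 4 members it is in Acta2 alone. The strict CArG box, without a G or C inside, is in none of the 4 and in 1.63% of all promoters. The relaxed form was searched after the strict form had given no match, and a match is a letter pattern and not a measured site.

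Oxtr encodes the oxytocin receptor and lies on the minus strand of chromosome 6 (112473683 to 112489943). The capitals in its promoter mark AGGTCA, the core motif bound by RXR and its partner receptors.
Oxtr promoter, chr6:112489776-112490075, minus strand: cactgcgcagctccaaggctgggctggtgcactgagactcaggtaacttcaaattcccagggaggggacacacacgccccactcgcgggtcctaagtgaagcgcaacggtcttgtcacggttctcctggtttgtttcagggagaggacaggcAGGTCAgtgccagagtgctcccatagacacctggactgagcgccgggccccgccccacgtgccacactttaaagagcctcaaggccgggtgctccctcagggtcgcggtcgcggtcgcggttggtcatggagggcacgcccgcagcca
AGGTCA begins 98 bases before the start site, is in Oxtr alone among the 4 members and is in 16.3% of all promoters on either strand. GGAATG, the core bound by TEAD factors, is in the promoters of Acta2 and Mylk and in 14.7% of all promoters. The Mylk promoter, at 34784700 to 34784999, lies inside the deposited gene, which starts at 34745210. The exact letters TATAAA are in none of the 4 and in 13.6% of all promoters. Near forms, such as the tatataa printed in the Acta2 promoter after the start site, were not searched. The data hold no binding measurement, and no match was tested against the fold changes. The Oxtr promoter was chosen for display by the values on bexarotene, so a match beside those values is not a result.

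Acta2 was measured in every tumor by at least 216 counts. In control tumors it was at 38.1, 11.3, 11.5 and 14.0 normalized CPM in replicates 1 to 4 (mean 18.8 ± 13.0 SD, n = 4). With MSU-42011 the values were 26.6, 14.8, 47.8 and 28.5 CPM (29.4 ± 13.7 SD, n = 4), and with bexarotene they were 195, 37.8, 16.7 and 15.9 CPM (66.4 ± 86.5 SD, n = 4). The groups overlapped, since control replicate 1 was above 3 of the 4 MSU-42011 tumors and above 3 of the 4 bexarotene tumors. Bexarotene replicate 1 was 11.7-fold above the median of the other 11 tumors and 4.09-fold above the next highest.

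Myh11, the smooth muscle myosin heavy chain (minus strand of chromosome 16, 14194535 to 14291372), is the member most restricted to smooth muscle. Its level was 4.33, 0.852, 2.83 and 1.85 CPM in control tumors, 1.70, 4.30, 3.09 and 2.39 CPM with MSU-42011, and 35.02, 6.77, 1.501 and 1.84 CPM with bexarotene. The values of the control and MSU-42011 groups covered nearly the same range, and bexarotene replicates 1 and 2 were above all other tumors while replicates 3 and 4 were not. Bexarotene replicate 1 was 14.7-fold above the median of the other 11.

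Cnn1, calponin, binds actin and restrains the myosin motor (plus strand of chromosome 9, 22099216 to 22109630). It was counted 1, 6, 16 and 0 times in control tumors, 0, 5, 8 and 8 times with MSU-42011, and 178, 31, 5 and 6 times with bexarotene. This gene alone among the members failed the filter on low counts. The tumors at 0, control replicate 4 and MSU-42011 replicate 1, allow up to 0.129 and 0.165 CPM by the limit of 3 counts, which covers counting error only. Bexarotene replicate 1 was at 6.57 CPM, 21.7-fold above the median of the other tumors.

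Tagln, transgelin, is another actin-binding protein of smooth muscle (minus strand of chromosome 9, 45929619 to 45936058). Control tumors were close to each other at 0.831, 0.852, 0.855 and 0.733 CPM. With MSU-42011 the values were 0.385, 0.182, 0.813 and 0.838 CPM, and with bexarotene 4.096, 1.002, 0.339 and 0.674 CPM. Replicates 1 and 2 of both treated groups thus lay on opposite sides of the control tumors, and the groups overlapped. These counts are uncertain, because 62.4% of Tagln's exonic bases are overlapped by the antisense gene Gm48529 and 5.43% by Pcsk7 on the other strand, and the strand setting of the counting is not given in the sources used here. Gm48529 had 526 counts over the 12 tumors and Tagln 260.

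Actg2, the gamma-actin of gut and other visceral smooth muscle (minus strand of chromosome 6, 83512905 to 83536265), was at 1.60, 0.237, 0.374 and 1.59 CPM in control tumors. It was at 1.98, 1.45, 2.38 and 3.19 CPM with MSU-42011 and at 13.5, 2.58, 1.45 and 0.245 CPM with bexarotene. MSU-42011 replicates 1, 3 and 4 were above every control tumor, replicate 2 was within the control range, and the bexarotene group ran from near the control minimum to the highest value of all. Actins resemble each other, so their transcripts were compared: 0 of 1592 windows of 50 bases in Actg2 and 7 of 2146 in Acta2 were identical to a window of another actin. The 7 were shared with Actg1, a cytoplasmic actin that was at 817 to 2212 CPM.

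Mylk, the myosin light chain kinase that starts contraction, was the least variable member, with 3.37-fold between the lowest and highest tumor. It lies on the plus strand of chromosome 16 (34745210 to 35002420). Its level was 17.9, 18.5, 13.7 and 12.2 CPM in control tumors (15.6 ± 3.10 SD, n = 4) and 18.5, 20.5, 27.2 and 23.2 CPM with MSU-42011 (22.4 ± 3.78 SD, n = 4). With bexarotene it was 41.3, 16.7, 17.0 and 14.7 CPM (22.4 ± 12.6 SD, n = 4). MSU-42011 replicate 1 and control replicate 2 met at the border between their groups, which otherwise did not overlap, and 3 bexarotene tumors lay within the control range.

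Oxtr was at 56.4, 59.8, 12.3 and 37.9 CPM in control tumors (41.6 ± 21.8 SD, n = 4). It was at 28.0, 5.39, 61.6 and 46.1 CPM with MSU-42011 (35.3 ± 24.2 SD, n = 4) and at 15.98, 15.1, 9.20 and 25.9 CPM with bexarotene (16.5 ± 6.91 SD, n = 4). All bexarotene tumors were below 3 of the 4 control tumors, but 3 of them were above control replicate 3. MSU-42011 replicates 2 and 3 were the lowest and the highest of the 12 tumors, 11.4-fold apart. In bexarotene replicate 1, where the contractile genes peaked, Oxtr ranked 8 of 12 and was 0.571 of the median of the other tumors.

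Trp63 encodes p63, which maintains basal epithelial cells (plus strand of chromosome 16, 25683763 to 25892102). It was at 3.56, 5.82, 1.34 and 1.29 CPM in control tumors, 1.32, 0.727, 3.20 and 3.23 CPM with MSU-42011, and 3.47, 0.620, 2.71 and 0.490 CPM with bexarotene. Each group held high and low tumors, and the groups overlapped over most of the range. Bexarotene replicate 1 ranked 3 of 12, after control replicates 1 and 2.

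**Figure D1:**
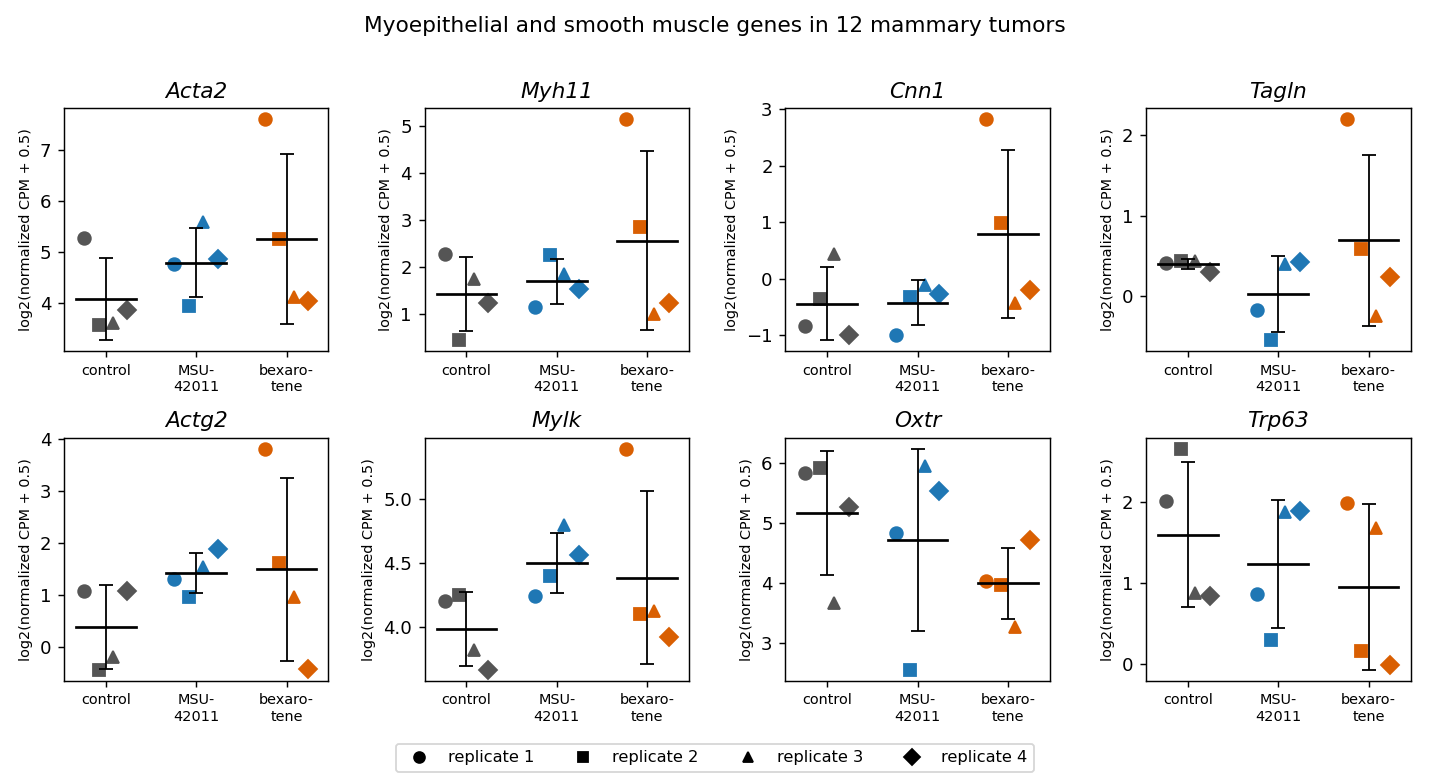
Level of each member in 12 tumors as log2(normalized CPM + 0.5) by diet, with 1 point per tumor, the shape giving the replicate number, and the line and bar giving the group mean ± SD (n = 4). Bexarotene replicate 1 is the highest tumor in 6 panels and not in those of Oxtr and Trp63.

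On the authors' FPKM scale, which divides by length and so allows genes to be compared, Acta2 was the most abundant member (median 12.4 FPKM over 12 tumors, range 6.07 to 115). Mylk (7.52) and Oxtr (6.26) followed, then Actg2 (1.70), Tagln (0.843), Trp63 (0.579), Myh11 (0.506) and Cnn1 (0.293). Acta2 exceeded Mylk in 10 tumors and Oxtr exceeded Actg2 in 10. Neighbours were often not separated: Mylk was above Oxtr in 7 tumors, Tagln above Trp63 in 6 and Trp63 above Myh11 in 7. The FPKM imply a shorter length than the one listed for 7 members, 2344 against 11263 bases for Mylk, and by the listed lengths Oxtr would rank 2 and Mylk 3. The balance between members also changed from tumor to tumor, as the Oxtr to Acta2 ratio of FPKM ran from 0.0346 in bexarotene replicate 1 to 2.23 in control replicate 2.

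MSU-42011 was compared with control diet to ask how the compound alters tumor expression. Of the 7 members tested, 4 had a positive and 3 a negative log2 fold change, with a median of 0.22 against 0.0016 for all genes tested. Over these 7 members the median ran from 0.046 to 0.60 in the 12 fits that each lacked 1 tumor. Over the members that passed the filter in each of those fits, Cnn1 included where it passed, the median changed sign. It ran from −0.13 without MSU-42011 replicate 3 to 0.33 without MSU-42011 replicate 1. The edgeR quasi-likelihood test called 0 members and 0 of 15504 genes (0% of genes) at a Benjamini-Hochberg adjusted p under 0.05, and DESeq2 called 1 gene that was no member. Unadjusted p-values under 0.05 were reached by 309 genes in edgeR, 1.14% of genes as higher and 0.851% as lower, and by 0 members. The highest member values were those of Actg2 (log2 fold change 1.24, 95% interval −0.79 to 3.27), Acta2 (0.65, −0.98 to 2.28) and Mylk (0.52, −0.14 to 1.18), all with an edgeR adjusted p of 0.99986. Tagln was at −0.54, Trp63 at −0.50, Oxtr at −0.24 and Myh11 at 0.22 on the same scale. Without MSU-42011 replicate 2 the value of Oxtr turned to 0.12, and without control replicate 2 those of Trp63 and Myh11 turned to 0.046 and −0.066. Cnn1, fitted without the filter, was at −0.13 with an interval from −2.58 to 2.32.

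Mylk came nearest to a separation of MSU-42011 from control. Its exact two-sided permutation p was 0.0571, where 4 tumors against 4 cannot give less than 0.0286, and after adjustment over the 24 such tests of the 8 members it was 0.686. In the edgeR fit without bexarotene replicate 1 its log2 fold change was again 0.52, with an SE of 0.17 in place of 0.30 and an interval from 0.15 to 0.89 (edgeR unadjusted p = 0.00953, adjusted p = 0.99984). The other 7 members had exact permutation p-values between 0.0857 and 0.943 in this comparison. None of the 8 members separated the groups without overlap, which 1.97% of all genes did.

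Bexarotene was compared with control diet in the same model, with the same 4 control tumors. Of 7 members, 5 had a positive log2 fold change, and the median was 0.92 against 0.030 for all genes. EdgeR again called 0 members and 0 genes (0%), with 998 genes at an unadjusted p under 0.05, and DESeq2 called 6 genes and 0 members. Actg2 (log2 fold change 2.23, SE 0.95, 95% interval 0.17 to 4.28), Myh11 (2.20, SE 0.88, 0.29 to 4.12) and Acta2 (1.83, SE 0.76, 0.17 to 3.49) had unadjusted p-values under 0.05 and an edgeR adjusted p of 0.762. That is 3 of 7 members, against 4.48% of all genes as higher and 1.96% as lower. In the other fits that kept every control and bexarotene tumor, it ran from 0 of 7 (limma on log2 FPKM) to 4 of 7 (DESeq2). Tagln was at 0.92 and Mylk at 0.53, and Cnn1 without the filter was at 2.84 with an interval from 0.48 to 5.19 (edgeR adjusted p = 0.710).

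These contractile values fell when bexarotene replicate 1 was left out. The log2 fold changes were then 0.33 for Acta2, 0.46 for Myh11, 0.59 for Actg2, 0.050 for Mylk and −0.28 for Tagln, each with an interval that included 0. Cnn1, fitted without the filter and without that tumor, was at 1.21 (−0.82 to 3.23). The median of the 7 members was 0.050, and 0 of 7 members had an unadjusted edgeR p under 0.05, against 523 of 15619 genes. With the filter dropped as well, 1 of 8 members did, which was Oxtr, against 1054 of 29183 genes. Cnn1 passed the filter in the fits without bexarotene replicate 3 or 4. An unadjusted p under 0.05 was reached there by 4 and 6 of 8 members, against 1600 of 15777 and 1385 of 15972 genes. Over the 7 members tested with all tumors the numbers were 3 and 5. Exact permutation p-values over the 8 members ranged from 0.114 to 0.800 with all tumors, and no member separated the groups without overlap, against 2.03% of genes.

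Oxtr and Trp63 were the members with negative values on bexarotene. The log2 fold change of Oxtr was −1.33 (SE 0.62, 95% interval −2.68 to 0.017, edgeR adjusted p = 0.773), and without bexarotene replicate 1 it was −1.32. Leaving out each tumor in turn moved it between −1.64 and −1.11. Its exact two-sided permutation p was 0.114, the smallest of the 8 members, so the difference did not exceed the spread between tumors by that test. Trp63 was at −0.70 (−2.26 to 0.85) with all tumors, at −1.22 without bexarotene replicate 1 and at −0.17 without control replicate 2.

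The agonists were also set against each other, at the same dose and time, and 8 members were compared. Of 7 members tested, 2 were higher with MSU-42011, and the median log2 fold change was −0.99 against −0.024 for all genes. EdgeR called 0 members and 0 genes (0%), with 612 genes at an unadjusted p under 0.05, and DESeq2 called 4 genes and 0 members. One member, Myh11 (−1.98, 95% interval −3.88 to −0.081), had an unadjusted p under 0.05, against 3.13% of genes as lower and 0.819% as higher, and its edgeR adjusted p was 0.997. Cnn1 without the filter was at −2.96 (−5.34 to −0.59, edgeR unadjusted p = 0.0176, adjusted p = 0.792). The interval of the difference was −2.81 to 0.45 for Acta2, −2.95 to 0.047 for Tagln, −2.94 to 0.97 for Actg2, −0.66 to 0.65 for Mylk, −0.25 to 2.44 for Oxtr and −1.36 to 1.75 for Trp63. These intervals are too wide to say that the compounds act alike on the contractile genes.

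Without bexarotene replicate 1 the contractile differences between the agonists shrank or turned. Acta2 was then at 0.32 (−0.75 to 1.399), Actg2 at 0.65 (−0.93 to 2.23), Myh11 at −0.24 (−1.54 to 1.06) and Mylk at 0.47 (0.071 to 0.87). The edgeR adjusted p of Mylk was 0.939 in that fit. Cnn1, with the filter dropped as well, was at −1.35 (−3.39 to 0.69). Exact permutation p-values with all tumors ran from 0.229 to 0.943, and 0 members separated the groups, against 1.17% of genes. In the test among the 3 groups edgeR called 0 genes (0%) with 657 at an unadjusted p under 0.05, and DESeq2 called 5 genes and 0 members.

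**Figure D2:**
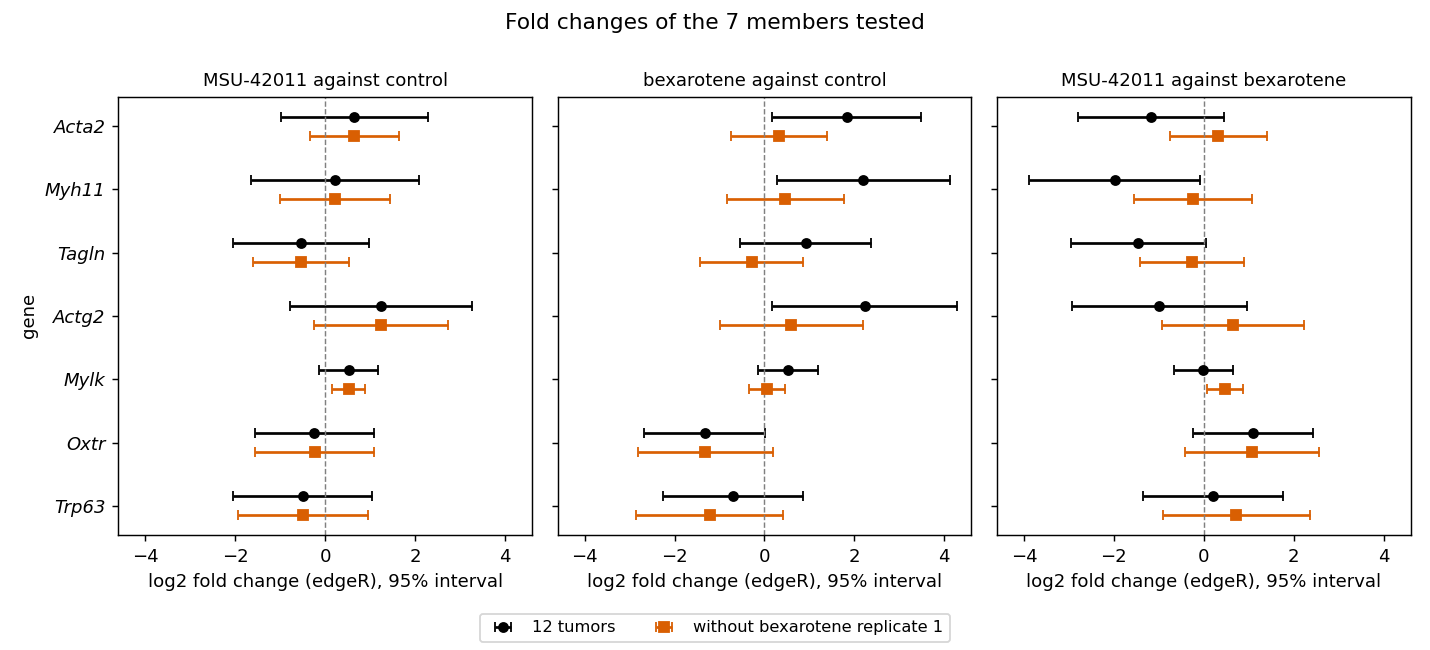
Log2 fold change and 95% interval (edgeR) of the 7 members tested in each comparison, from all 12 tumors (black circles) and without bexarotene replicate 1 (orange squares). With all tumors, Acta2, Myh11 and Actg2 lie to the right of 0 in bexarotene against control, and without that tumor their intervals include 0, whereas Oxtr stays near −1.3.

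The 6 contractile members were correlated with each other over the 12 tumors. Their 15 pairs had Pearson r between 0.601 and 0.891 (median 0.769) on log2(normalized CPM + 0.5), and 7 pairs passed Benjamini-Hochberg adjustment of the permutation p over all 28 pairs of members. By Spearman's rho 1 pair passed, Acta2 with Actg2 (r = 0.891, adjusted permutation p = 0.0042; rho = 0.832, adjusted permutation p = 0.035). Most of this rested on 1 tumor, since without bexarotene replicate 1 the 15 values of r ran from −0.096 to 0.744 with a median of 0.279 and 0 pairs passed. Acta2 with Actg2 stayed the highest at 0.744 (rho = 0.782), and r was 0.734 without the 2 tumors farthest from the median of Acta2. Within the 11 tumors Tagln was near 0 with Mylk (−0.096) and Actg2 (−0.061).

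Oxtr was weakly correlated with the contractile genes over the 12 tumors. Its r with them was between −0.318 and 0.182, and that of Trp63 was between 0.0037 and 0.480, with no pair passing adjustment. Without bexarotene replicate 1 Oxtr had r = 0.636 and rho = 0.355 with Tagln (permutation p of r = 0.0325, adjusted 0.385). Oxtr and Trp63 had r = 0.536 and rho = 0.545 with each other (permutation p = 0.0738 and 0.0709, adjusted p = 0.129 and 0.261 over 28 pairs). This value was 0.608 without bexarotene replicate 1 and 0.600 without the 2 tumors farthest from the median of Oxtr.

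**Figure D3:**
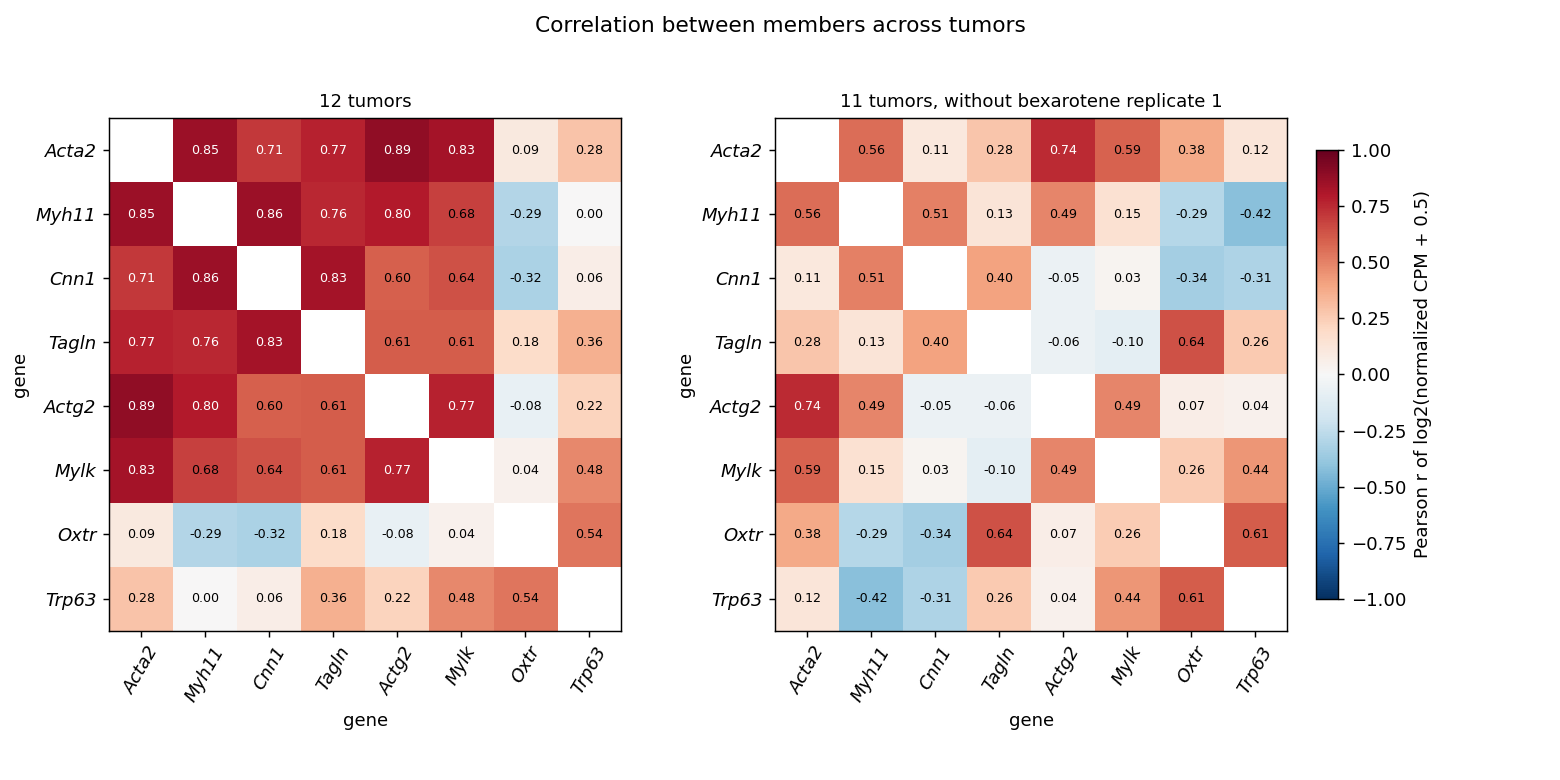
Pearson r between members across tumors on log2(normalized CPM + 0.5), for 12 tumors and for the 11 without bexarotene replicate 1, with the value printed in each cell. The 15 contractile pairs are at 0.601 to 0.891 on the left and at −0.096 to 0.744 on the right.

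**Figure D4:**
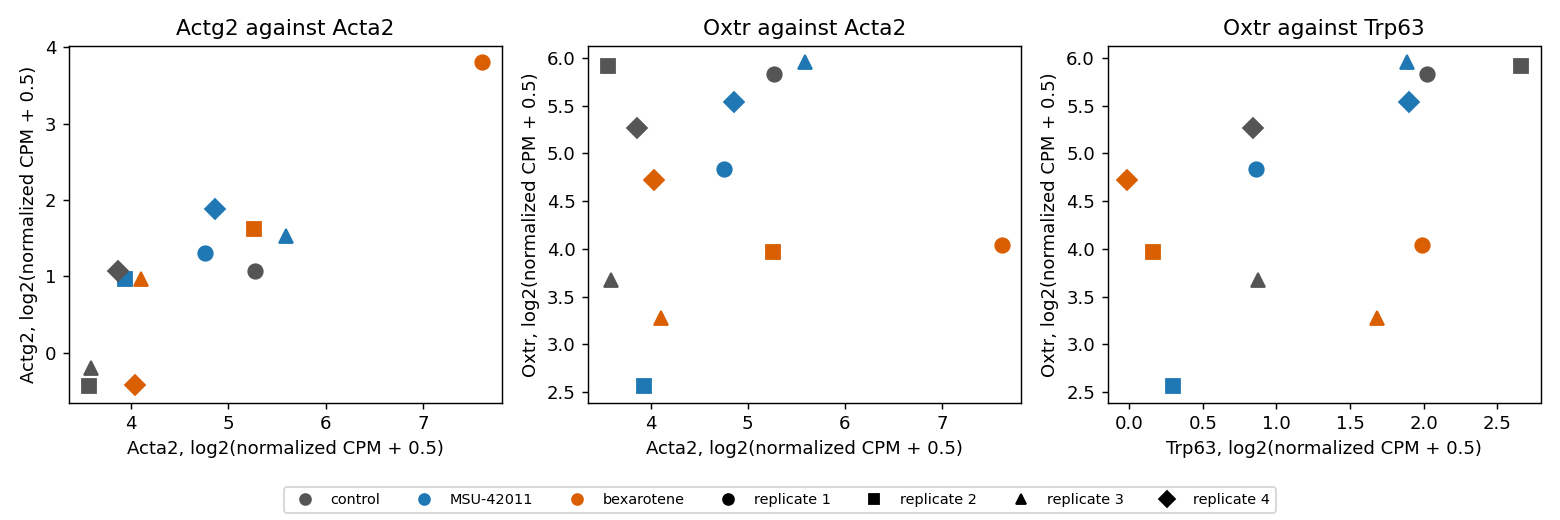
Actg2 against Acta2, Oxtr against Acta2 and Oxtr against Trp63, each axis as log2(normalized CPM + 0.5), 1 point per tumor, with color for the diet and shape for the replicate number. Bexarotene replicate 1 lies at the upper right for Acta2 and Actg2 and in the lower part for Oxtr.

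Each member was set against all other tested genes for likeness of pattern, as Pearson r over the 12 tumors and with no test. The 3 genes named for a member are the highest of all those tested, so a high r follows in part from that choice. The genes most like Acta2 were Mustn1 (0.982), Bgn (0.976) and Col5a2 (0.973), and the same 3 led without bexarotene replicate 1 at 0.952, 0.936 and 0.931. Bgn and Col5a2 encode a proteoglycan and a collagen of the extracellular matrix. For Oxtr they were Slc6a15 (0.934), Lbp (0.933) and Vdr (0.922), the last being the vitamin D receptor, a partner of RXR. Without bexarotene replicate 1 these stood at 0.933, 0.935 and 0.927, and Slc6a15 and Lbp were still among the leading 3. Trp63 was most like Wfdc2 (0.933), Snx4 (0.929) and Zc2hc1a (0.920). Without that tumor these stood at 0.932, 0.923 and 0.921, and other genes led.

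Among the other contractile members, Myh11 was most like Itgbl1 (0.974), Fmod (0.971) and Ndn (0.968), and Actg2 was most like Tfpi (0.942), Naip5 (0.939) and Hspb8 (0.930). Cnn1 was led by Stmn2 (0.956), Adam15 (0.953) and Fgf2 (0.950), Tagln by Vamp5 (0.962), Serpina3h (0.942) and Palm (0.9395), and Mylk by Glb1l (0.936), Il17rd (0.918) and Cd180 (0.914). For Cnn1, Tagln and Mylk none of the 3 leading genes was among the leading 3 over the 11 other tumors, for Myh11 Ndn was, and for Actg2 Tfpi and Naip5 were. Over those 11 tumors the 3 genes named had r of 0.908 to 0.911 with Myh11, 0.856 to 0.911 with Actg2, 0.822 to 0.835 with Cnn1, 0.751 to 0.869 with Tagln and 0.816 to 0.855 with Mylk. All tumors of 1 group share a diet.

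Other genes of the contractile apparatus were counted as a list of 25, of which 24 were tested. None was called in either comparison with control, and their median log2 fold change was −0.049 with MSU-42011 and 0.13 with bexarotene, against 0.0016 and 0.030 for all genes. Without bexarotene replicate 1 the median log2 fold change with bexarotene was −0.19. In that tumor 13 of the 25 were at their highest. The median over the list was 0.80 on the log2 scale above the control mean there and −0.44 to 0.41 in the others. The list summed to 2192 CPM there and to 1052 to 2646 CPM in the others. Desmin (Des), an intermediate filament of muscle, was at 20.7 CPM there and at 1.94 to 25.9 CPM in the other tumors. Smtn, smoothelin, and Lmod1, leiomodin, were within the range of the other tumors there: Smtn was at 89.9 CPM against 84.3 to 147, and Lmod1 at 26.4 against 15.995 to 72.6.

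Of 8 genes of the SRF and myocardin family, 6 were tested and 0 called, with median log2 fold changes of 0.053 with MSU-42011 and 0.010 with bexarotene (−0.11 without bexarotene replicate 1). Srf itself was at 61.5 ± 7.26 CPM in control tumors, 53.9 ± 9.80 with MSU-42011 and 53.0 ± 8.06 with bexarotene (SD, n = 4 each). Mkl1, a myocardin-related cofactor of SRF, was at 28.4 to 38.4 CPM over the 11 other tumors and at 32.1 CPM in bexarotene replicate 1. Myocd, myocardin, had no count in 6 tumors and at most 4 counts elsewhere, except for 15 counts in bexarotene replicate 1.

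The defining keratins of the myoepithelial lineage were at or near 0 in most tumors, so the 8 genes are given by name and assigned to no cell type. Krt14, a basal keratin, had 3 counts or fewer in 8 tumors and none in 3 of them, and Krt5 had none in 7. In bexarotene replicate 1 Krt14 was at 2.95 CPM and Krt5 at 6.86 CPM, above all other tumors, where they reached 1.23 and 0.802 CPM, while Krt17 was at 0.849 CPM, inside the range of 0 to 1.61. Ngfr and Col17a1, named here after their values were seen, had no count in 7 and 6 tumors, and in bexarotene replicate 1 they were at 3.95 and 3.03 CPM against at most 0.238 and 0.251 CPM elsewhere. Sox10, a neural crest and mammary progenitor factor also named after its values were seen, was at 695 CPM in that tumor and at 920.0 to 1293 CPM in the others, and the 16 markers, Sox10 included, summed to 1348 CPM there and to 1566 to 2101 CPM in the others. The median over the list went the other way, at 0.95 on the log2 scale above the control mean in that tumor and at −0.18 to 0.10 in the others. Of the 16 markers 11 were tested and 0 called, with median log2 fold changes of 0.060 with MSU-42011 and −0.13 with bexarotene (0.0022 without bexarotene replicate 1), and 9 were highest in bexarotene replicate 1.

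Genes of other cells that make contractile proteins moved with the members in that tumor. The 12 markers of vascular smooth muscle and pericytes summed to 785 CPM in bexarotene replicate 1, against 256 to 370 in control tumors, 208 to 551 with MSU-42011 and 273 to 311 in the other bexarotene tumors. Rgs5, a pericyte gene, was at 247 CPM against 49.2 to 164, Pdgfrb at 133 against 15.1 to 74.5 and Notch3 at 104 against 66.5 to 119. The 11 fibroblast and myofibroblast markers summed to 9887 CPM there, against 110 to 843 in the other tumors, and all 11 were at their highest. Col1a1 and Col3a1, the main fibrillar collagens, were at 3561 and 3100 CPM against at most 280 and 207, and Pdgfra was at 100.0 CPM against 3.004 to 10.1. Bexarotene replicate 2 had the next highest fibroblast sum, 843 CPM, and was the second highest tumor for Myh11, Cnn1 and Tagln, the third for Actg2, the fourth for Acta2 and the ninth for Mylk.

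Markers of other tissues also stood apart in bexarotene replicate 1. The 10 endothelial markers, such as Pecam1, Cdh5 and Kdr, summed to 518 CPM against 95.3 to 250, and all 10 were highest there. Skeletal muscle markers, such as Acta1, Ckm and Myh4, summed to 292 CPM against 1.63 to 163, where 163 CPM belonged to control replicate 1 and the next highest tumor was at 5.26. Leukocyte and macrophage markers (Ptprc, Csf1r, Adgre1 and 4 others) summed to 529 CPM against 55.7 to 150, and adipocyte markers (Adipoq, Plin1, Cidec and 3 others) to 84.8 against 12.2 to 32.3. Luminal epithelial markers (Krt8, Krt18, Epcam and 7 others) summed to 3163 CPM against 4655 to 6148, lower than in any other tumor. The part of these lists in the members' values was not tested, and in bulk tissue fewer cells of a type and less RNA per cell cannot be told apart.

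Acta1, the skeletal muscle actin, was at 60.3 CPM in control replicate 1 and 95.2 CPM in bexarotene replicate 1. It was at 0.867 CPM or less with MSU-42011 and at 0.436 CPM or less in the other bexarotene tumors. The median of the control group was 0.538 CPM. Acta2 was the highest of its diet group in control replicate 1 and in bexarotene replicate 1. Actc1, the cardiac actin, had no count in 11 tumors and 6 counts in bexarotene replicate 1. Actb, a cytoplasmic actin used as a reference, was at 1717 to 3240 CPM over all tumors, and in bexarotene replicate 1 it was 1.09-fold the median of the others.

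EdgeR called 0 of the 94 companion genes tested in any comparison. An unadjusted p under 0.05 was found for 1 of them with MSU-42011 and 13 with bexarotene relative to control diet, and for 18 between the agonists. Over all 15504 genes it was found for 309, 998 and 612. Without bexarotene replicate 1 it was found for 5, 5 and 7 companion genes, against 411, 523 and 479 of 15619 genes. With all tumors, DESeq2 called 0, 0 and 1 of the companion genes. The 1 was Cthrc1, a gene of the fibroblast list, lower with MSU-42011 than with bexarotene (log2 fold change −6.97, DESeq2 adjusted p = 0.0189). Cthrc1 was at 59.0 CPM in bexarotene replicate 1 and at 0 to 7.58 CPM in the other tumors. DESeq2 was not run without that tumor. Against control, the fibroblast list had a median log2 fold change of 3.55 with bexarotene, with 8 of 11 genes at an unadjusted p under 0.05, and of −0.30 with MSU-42011, and without bexarotene replicate 1 the former was 0.90 with 0 such genes. The vascular smooth muscle and pericyte list was at 0.45 with bexarotene and 0.29 with MSU-42011, and the endothelial list at 0.83 and 0.30, and without bexarotene replicate 1 the bexarotene medians were −0.078 and 0.13. Skeletal muscle markers were at 0.90 and −2.38 over the 4 genes tested, leukocyte markers at 0.75 and −0.080, luminal markers at −0.17 and −0.15, and the single adipocyte gene tested at 0.70 and −0.15. Without bexarotene replicate 1 the bexarotene values of these 4 lists were −2.27, −0.30, −0.13 and −0.091. Control replicate 1, the control tumor high in skeletal muscle markers, also set the values of that list, which without it were 3.32 with bexarotene and −0.22 with MSU-42011. The comparisons share the control tumors.

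**Figure D5:**
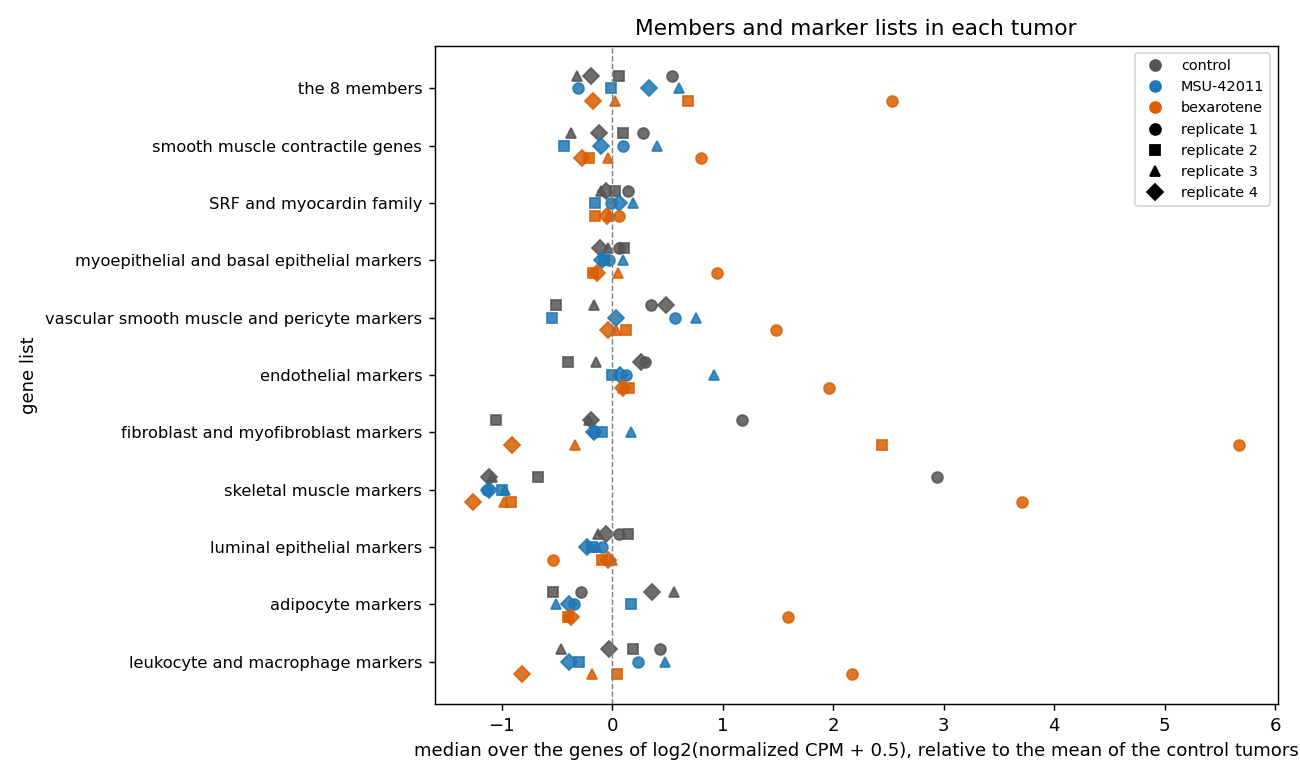
Median over the genes of a list of log2(normalized CPM + 0.5), as the difference from the control mean, with 1 point per tumor, color for the diet and shape for the replicate number. The 8 members lie at 2.53 in bexarotene replicate 1 and between −0.32 and 0.69 in the other tumors, and the fibroblast list lies at 5.67 and between −1.05 and 2.44.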

How the data were processed

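RNA-seq of 12 tumors was analysed, 4 per diet, with groups taken from the sample labels and all 12 columns used. The authors deposited raw read counts per gene, without normalization, and FPKM, in which the authors divided each count by library size and by a length of the gene. The submitters' processing notes name STAR 2.6.1d, featureCounts 1.5.0-p3 and DESeq2, while the strand setting and the build are not given in the sources used here. Gene coordinates equal those of GENCODE M21 (GRCm38) for 98.3% of genes and for 7 members. Acta2 differs, ending at 34255336 in the deposited tables and at 34255590 in GENCODE M21. Its promoter was placed by the RefSeq start site, which is not the end of the deposited gene. The promoters of Cnn1, Mylk and Oxtr were placed in the same way, and their start sites also differ from the deposited gene limits. The actin transcripts compared were those of GENCODE M21.

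Counts of 15504 genes were tested with edgeR 4.0.16 (TMM, filterByExpr, quasi-likelihood F test, 1 mean per group, no covariate) in R 4.3.3, with Benjamini-Hochberg adjustment over all genes. The common biological coefficient of variation was 0.338. Log2 values have 0.5 CPM added. Single members were compared by exact two-sided permutation tests, and correlations by 100000 permutations. The fits were tested on simulated data first. Nothing in the sources says whether tumors came from separate litters or days, so p-values measure the spread between these tumors.

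The members and the 10 companion lists (115 genes) were written by hand with earlier results of these data known. Named genes are all members, the first 3 of each list in its written order, any list gene called, the 3 genes most like each member, and 4 other actins, besides 2 genes that overlap Tagln and 3 said to be named after their values were seen. Alternatives were DESeq2 1.42.0, its size factors, no filter, a robust fit, a replicate block, each tumor left out, the 2 groups alone and limma 3.58.1 on log2 FPKM with 1 or 0.1 added.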

Additional observations from a re-analysis of the deposited data

Results flagged for a closer look

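Each member was examined in each diet group of 4 tumors for a single tumor whose gap to the next, divided by the group's range, was above Dixon's 95% critical value, and 4 of 24 such sets had one. Dixon's value gives about 1 in 20 by chance only for normally distributed values. The sets were examined on normalized CPM without a log, and the sets of 1 tumor are not independent. Whether 4 of 24 exceeds chance was therefore not tested. Of the 4, 3 were in bexarotene replicate 1, with Acta2 at 195 normalized CPM, Myh11 at 35.02 and Mylk at 41.3. The fourth was Acta2 in control replicate 1, at 38.1 CPM against 11.3 to 14.0 in the other control tumors, and that tumor also had the highest skeletal muscle and fibroblast sums of its group (163 and 435 CPM).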

How the results depend on the processing

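No member was called in any fit. Where edgeR called 0 genes, DESeq2 called 5 among the 3 groups, 1 with MSU-42011 and 6 with bexarotene against control, and 4 between the agonists, and limma on log2(FPKM + 0.1) called 1 among the groups and 1 for bexarotene. Leaving out each tumor gave 0 to 1 genes among the groups and for bexarotene. The members' median log2 fold change then ranged from 0.050 to 1.70 for bexarotene against control and from −1.43 to 0.47 between the agonists over the 7 or 8 members that passed the filter, and from 0.050 to 1.24 and −1.37 to 0.47 over the 7 tested with all tumors. For MSU-42011 against control the median ran from −0.13 to 0.33 over the members that passed the filter, and from 0.046 to 0.60 over those 7. Between the agonists limma gave −0.14 with 1 and 0.13 with 0.1 added to FPKM. For bexarotene against control it gave 0.40 and 0.44 in the same order. Correlated pairs numbered 7 with all tumors, 15 with group means removed and 0 to 8 with 1 tumor left out (0 without bexarotene replicate 1, 3 without replicate 2). Removing group means keeps bexarotene replicate 1 among the tumors. Tagln with Mylk, for example, had r = 0.850 with group means removed and −0.096 without that tumor. With DESeq2's size factors, tried after the data were seen, 1 member passed the exact permutation test for MSU-42011 (Mylk, p = 0.0286, adjusted 0.686).

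Without the filter and without bexarotene replicate 1, a pair of choices added after the data were seen, 1 gene was called between the agonists and the members' median was 0.41, with Acta2 at 0.34, Actg2 at 0.66 and Mylk at 0.48, and Tagln was at −0.29 for bexarotene.

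Signs turned as follows, with no value past the threshold. Between the agonists, Mylk (−0.0057) was at 0.0037 with DESeq2's size factors, 0.016 without the filter, 0.0039 in DESeq2, 0.12 and 0.14 in limma with 1 and 0.1 added, and −0.16 to 0.47 with 1 tumor left out, and Actg2 was at 0.13 in limma with 0.1 added. With 1 tumor left out, Acta2 ran from −1.51 to 0.32, Actg2 from −1.37 to 0.65 and Trp63 from −0.092 to 0.73 between the agonists, Tagln from −0.28 to 1.24 for bexarotene, and Myh11 from −0.066 to 0.64, Cnn1 from −0.56 to 0.26, Oxtr from −0.65 to 0.12 and Trp63 from −0.78 to 0.046 for MSU-42011. The cause was not tested.

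With the replicate number as a block, 0 genes and 0 members were called, the members' medians were 0.51, 0.57 and −0.37, and Mylk was at 0.12 between the agonists. The sources name nothing that same-numbered tumors share, and their deviations had r from −0.388 to 0.380, with 5 of 12 pairs over 0.1, so they were not treated as pairs. Low counts limit Cnn1 and Tagln, and the counting error of a few reads adds to the spread between tumors.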
